A study of Mus musculus with 153 samples.

Results

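The genes described are 10 chaperone and folding genes of the endoplasmic reticulum (ER), taken by name: Hspa5, Hsp90b1, Pdia3, Pdia4, Pdia6, Calr, Canx, Sdf2l1, Dnajb9 and Xbp1. They are 10 of the 25103 genes listed in 6 tables of read counts from mouse dorsal hippocampus, and all 10 passed the filter on low counts in every comparison. The mice carried a Cre driver and a conditional TRAP allele (genotypes Camk2a.Cre/TRAPfl, Pvalb.Cre/TRAPfl and Sst.Cre/TRAPfl). TRAP tags ribosomes in cells that express Cre, so that messenger RNA on the ribosomes of 1 cell class can be pulled out of the tissue. The Camk2a driver is used for excitatory pyramidal neurons, the Pvalb driver for fast-spiking inhibitory interneurons and the Sst driver for another class of inhibitory interneurons. Each line gave a purified (ribosome-bound) fraction and a total lysate.

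Mice had been conditioned with a foot shock in a new box (labelled Conditioned, called shock here), had been placed in the box without shock (Box control), or had stayed in the home cage. Tissue was taken in sets of 15 min and 60 min, each with its own home cage mice. The 76 purified and 75 lysate libraries fall into 36 groups of 3 to 6, with 9043042 to 397228206 counted reads each. The ages of the mice were not given in the sources used here. Conditions compared within a table share the home cage or box libraries, and line and time set are each confounded with the table. The labels call the replicates biological, and p-values here measure the spread between these libraries. Since RNA of many cells was pooled, fewer cells of a type and less RNA per cell cannot be told apart.

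The ER is where secreted and membrane proteins are folded. Hspa5 (BiP, GRP78) is the ER member of the HSP70 family and Hsp90b1 (GRP94) that of the HSP90 family. Dnajb9 (ERdj4) is a J-domain partner of BiP, and Sdf2l1 is a small protein found in complexes with BiP and its J-domain partners. Pdia3, Pdia4 and Pdia6 are protein disulfide isomerases, which make and rearrange disulfide bonds. Canx (calnexin, membrane-bound) and Calr (calreticulin, soluble) hold newly made glycoproteins by their sugar chains, together with Pdia3. Xbp1 encodes a transcription factor of the unfolded protein response (UPR), the program by which cells raise ER chaperones when unfolded proteins build up. Its messenger RNA is spliced by the sensor IRE1, a step that counts per gene do not resolve. In neurons, much of the traffic through the ER consists of channels, receptors and secreted peptides.

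Many UPR target genes carry an ER stress response element, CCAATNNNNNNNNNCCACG, which NF-Y and ATF6 bind. It was searched on both strands of RefSeq windows of mouse genome build GRCm38.p6 that run 250 bases before to 50 bases after the gene start. Exact matches stood in the windows of 5 of the 10 genes, against 39 of 32851 windows of all genes (0.119%). The matches are printed below because they are what these 5 genes share in sequence. They run 5′ to 3′ on the strand of the gene, with the element in capitals. In Calr and in the second copy of Hsp90b1 it lies on the other strand.
Hspa5 (chr2:34772020-34772048, + strand): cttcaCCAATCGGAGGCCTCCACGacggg
Hsp90b1 (chr10:86705528-86705661, - strand): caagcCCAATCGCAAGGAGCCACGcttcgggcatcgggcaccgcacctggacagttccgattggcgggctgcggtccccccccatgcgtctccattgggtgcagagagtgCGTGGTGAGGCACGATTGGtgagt
Pdia6 (chr12:17266486-17266514, + strand): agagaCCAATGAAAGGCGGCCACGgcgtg
Calr (chr8:84847070-84847098, - strand): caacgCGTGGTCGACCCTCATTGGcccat
Canx (chr11:50325795-50325823, - strand): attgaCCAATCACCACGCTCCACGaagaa

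The Hspa5 stretch covers bases -70 to -42 from the RefSeq start, and that of Hsp90b1, the only window with 2 copies, bases -217 to -84. The parts of the element are common by themselves: CCAAT stood in 9 of the 10 windows and in 37.4% of all windows, and CCACG in 8 of the 10 and in 32.8% of all. TGACGTGG, a site of ATF6 and XBP1, stood in none of the 10 windows and in 222 of all (0.676%). A match is a run of letters, not a shown binding site. The windows of Pdia3, Pdia4, Sdf2l1, Dnajb9 and Xbp1 held no exact match to the main element. In GENCODE M21 (GRCm38), all 10 are protein-coding, with Hspa5 at chr2:34771970-34777547 and Hsp90b1 at chr10:86690209-86705509.

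Counts scaled to a common library total (CPM) were divided by exon length in kilobases (kb) to set levels of different genes side by side. Canx, Pdia3 and Hspa5 were the 3 most abundant members in all purified fractions and all lysates. In purified Pvalb libraries Canx averaged 191 ± 59.2, Pdia3 171 ± 53.3 and Hspa5 152 ± 44.6 CPM per kb (SD, n = 29). In purified Sst libraries the same genes averaged 125 ± 77.8, 119 ± 38.2 and 115 ± 37.7 CPM per kb (SD, n = 25). In purified Camk2a libraries Hspa5 averaged 108.3 ± 37.7, Pdia3 106.7 ± 32.9 and Canx 100.1 ± 36.0 CPM per kb (SD, n = 22). Within each fraction these 3 neighbours in the order differed by less than their spread.

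Hsp90b1 and Calr followed in every fraction, at 98.5 ± 27.9 and 80.1 ± 15.1 CPM per kb in purified Pvalb libraries. The lower 5 members, Sdf2l1, Pdia6, Xbp1, Dnajb9 and Pdia4, lay between 18.1 and 53.2 CPM per kb in the purified fractions. Dnajb9 changed places most: it averaged 37.3 ± 14.0 CPM per kb in purified Pvalb libraries, 23.8 ± 17.3 in purified Sst libraries and 18.7 ± 9.02 in purified Camk2a libraries. Pdia4 was highest per kb in purified Sst libraries, at 40.9 ± 12.05, against 28.4 ± 7.60 in purified Pvalb and 18.1 ± 5.94 in purified Camk2a libraries. In the lysates Pdia3 stood first in all 3 lines, at 144 ± 36.8 (Pvalb, n = 28), 172 ± 74.6 (Sst, n = 25) and 163 ± 44.5 CPM per kb (Camk2a, n = 22).

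**Figure D1:**
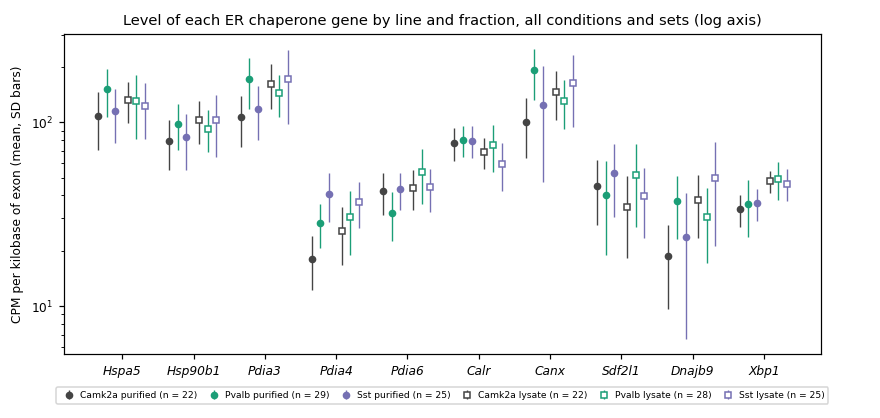
Mean level of each of the 10 genes in CPM per kb of exon, by line and fraction on a log axis, with the SD over libraries as error bars. Canx, Pdia3 and Hspa5 are the top 3 in every fraction.

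The libraries were checked against marker genes of their labelled cell class before conditions were compared. A score was used that sets the mean log2 CPM of the markers of the line's own class over that of other classes, relative to the lysates of the same table. Group means of the purified fractions ran from 3.04 to 4.25 in the Camk2a and Pvalb lines. In the Sst line 10 libraries scored below 1, among them all 4 shock libraries of the 60 min set (-0.51 to -0.32) and 4 of the 5 shock libraries of the 15 min set. The label of a somatostatin fraction is therefore not borne out by markers in those libraries. Another property moved with condition: the slope of a library's expression on the GC content of genes, in log2 units per 10 percentage points of GC. Camk2a shock libraries of the 60 min set averaged -0.30 ± 0.27 and their home cage libraries 0.25 ± 0.12. Pvalb libraries of that set had the opposite order, with 0.46 ± 0.44 after shock and -0.40 ± 0.10 in the home cage.

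In Camk2a neurons taken at 60 min, Hsp90b1 and Pdia3 were more abundant in the ribosome-bound fraction of shocked mice than of home cage mice. In Pvalb interneurons at 60 min the direction was opposite, and Hspa5, Hsp90b1, Pdia3, Canx and Dnajb9 were lower after shock. The same 5 genes had the 5 largest positive differences in the Camk2a line. Pdia4, Pdia6, Calr, Sdf2l1 and Xbp1 did not pass the test in either line. These are differences between shocked and home cage mice in ribosome-bound messenger RNA, and edgeR called no member in either line against the box control. Offsets for each library's trend with GC content and gene length left none of the 10 genes called in either line. The share of all genes called with these offsets is not given here or further on. Counts of members called with offsets are therefore not read as results about the members.

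In purified Camk2a libraries at 60 min, shock against home cage, 2 of the 10 genes rose and none fell by edgeR's quasi-likelihood test at a Benjamini-Hochberg adjusted p below 0.05. Of all 14673 genes tested, 2.3% were called and 1.66% rose. The median log2 difference of the 10 genes was 0.40, and that of all genes was -0.02.
Hsp90b1 had 273, 303, 306, 314 and 338 CPM in shock libraries, against 190, 198, 207 and 252 CPM in home cage libraries. Every shock library was above every home cage library, which held in the same direction for 4.52% of all genes. The log2 difference was 0.59 ± 0.14 (SE; edgeR adjusted p = 0.0496).
Pdia3 had 252, 295, 386, 406 and 513 CPM in shock libraries, against 173, 202, 262 and 265 CPM in home cage libraries. The lowest shock library lay within the home cage range. The log2 difference of this disulfide isomerase was 0.77 ± 0.20 (edgeR adjusted p = 0.0496).

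Canx, Hspa5 and Dnajb9 had differences of like size that did not pass. Canx had 316, 369, 463, 525 and 762 CPM in shock libraries, against 185, 242, 339 and 411 CPM in home cage libraries, a log2 difference of 0.79 ± 0.27 (edgeR adjusted p = 0.084). For Hspa5 the shock libraries gave 260, 371, 446, 588 and 600 CPM, against 157, 291, 377 and 393 CPM in the home cage, a log2 difference of 0.63 ± 0.27 (edgeR adjusted p = 0.161). Dnajb9, the least abundant of the 5, had 29.8, 44.4, 53.3, 61.2 and 87.9 CPM after shock, against 13.2, 33.6, 34.0 and 51.5 CPM in the home cage, a log2 difference of 0.81 ± 0.36 (edgeR adjusted p = 0.176). The groups overlapped in all 3 genes.

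The other 5 members gave smaller values. Pdia4 differed by 0.12 ± 0.23, Xbp1 by 0.20 ± 0.19, Sdf2l1 by -0.04 ± 0.21, Calr by -0.11 ± 0.17 and Pdia6 by -0.27 ± 0.19 on the log2 scale. Among them Calr, the soluble lectin, had 150.8, 178, 202, 235 and 235 CPM in shock libraries, against 191, 216, 223 and 262 CPM in home cage libraries. The 10 genes summed to 2246 ± 423 CPM in shock libraries (SD, n = 5) and 1694 ± 319 CPM in home cage libraries (SD, n = 4).

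Both calls in this line lay just under the threshold and did not last. Leaving out any of the 4 home cage libraries, shock replicate 1, 4 or 5, or box replicate 1 left 0 of the 10 genes called, and without shock replicate 3 the count was 3. Over the 12 fits that each left out 1 library, 0 to 1858 of all genes were called. Sex was inferred from the reads, with a library called male above 5 CPM summed over genes of the Y chromosome. By that rule 1 of 5 shock and 3 of 4 home cage libraries were male, while 0 of 5 shock lysates were. With this sex call as a covariate, Hsp90b1 differed by 0.53 (edgeR adjusted p = 0.19) and Pdia3 by 0.61 (edgeR adjusted p = 0.22). Offsets for GC content and length gave 0.16 for Hsp90b1 (edgeR adjusted p = 0.83) and 0.57 for Pdia3 (edgeR adjusted p = 0.12). The pyramidal neuron markers, none of 12 of them at 0, summed to 12574 to 21950 CPM in shock and 17105 to 21808 CPM in home cage libraries. The part of cell makeup in the result was not tested beyond a covariate for the marker score, which gave the same log2 values at edgeR adjusted p = 0.058 for both genes.

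Box control libraries of this set overlapped the home cage libraries in Hsp90b1 and Pdia3. Hsp90b1 had 187, 251 and 252 CPM in box libraries, and all 5 shock libraries were above them, a log2 difference of shock over box of 0.47 ± 0.16 (edgeR adjusted p = 0.261). Such an ordering was found for 2.99% of all genes. Pdia3 had 215, 266 and 295 CPM in box libraries, and shock over box was 0.57 ± 0.22 (edgeR adjusted p = 0.268). No member was called by edgeR in shock against box or in box against home cage, where 0% of all genes were called. At an unadjusted p below 0.05 the counts were 4 of the 10 (15.1% of all genes) in shock against box and 0 (2% of all genes) in box against home cage, and DESeq2 called 0 in both.

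**Figure D2:**
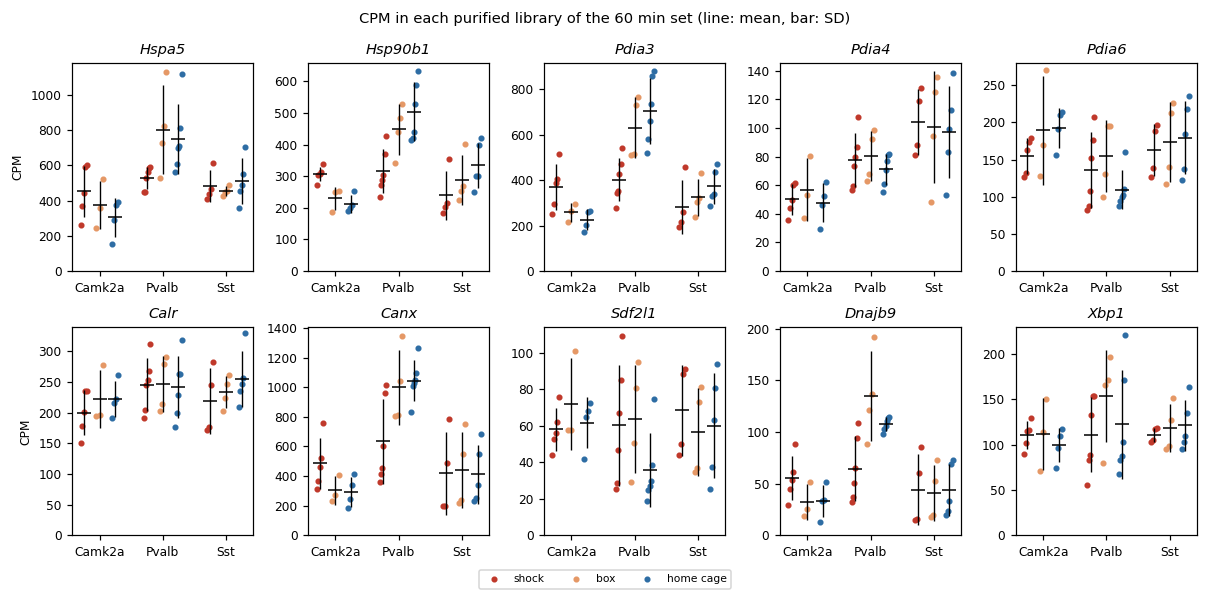
CPM of each of the 10 genes in every purified library of the 60 min sets, by line and condition; points are libraries, short lines group means and bars the SD. Hsp90b1 in Camk2a shock libraries (273 to 338 CPM) lies above home cage (190 to 252 CPM), and in the Pvalb line Canx in home cage libraries (834 to 1263 CPM) lies above most shock libraries (358 to 1017 CPM).

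In purified Pvalb libraries at 60 min, shock against home cage, 5 of the 10 genes fell and none rose. Here 35% of all 16135 genes tested were called and 15.3% fell, so a called gene is common in this comparison. The median log2 difference of the 10 genes was -0.33, and that of all genes was -0.06. Hspa5, the central chaperone, had a lowest, median and highest level of 449, 546 and 588 CPM in 6 shock libraries, against 565, 704 and 1116 CPM in 6 home cage libraries. Only the top of the shock range reached the home cage range, and the log2 difference was -0.52 ± 0.17 (edgeR adjusted p = 0.0277).

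Hsp90b1 had 233, 296 and 426 CPM (lowest, median, highest) in shock libraries, against 414, 485 and 634 CPM in home cage libraries, a log2 difference of -0.68 ± 0.16 (edgeR adjusted p = 0.00444). Pdia3 had 278, 391 and 540 CPM in shock libraries, against 520, 697 and 879 CPM in home cage libraries, a log2 difference of -0.82 ± 0.18 (edgeR adjusted p = 0.00236). Both pairs of groups overlapped only at their edges.
For Canx, the membrane-bound lectin, the shock libraries ran over 358, 529 and 1017 CPM, against 834, 1037 and 1263 CPM in the home cage, a log2 difference of -0.73 ± 0.24 (edgeR adjusted p = 0.026). Dnajb9 had 32.4, 57.5 and 108 CPM in shock libraries, against 98.5, 108 and 115 CPM in home cage libraries, a log2 difference of -0.75 ± 0.26 (edgeR adjusted p = 0.0316). In both genes the shock libraries spread widely, while the home cage libraries kept within a narrow range. None of the 5 genes had groups that did not overlap, which 10.6% of all genes had.

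The 5 other members did not pass in this line either. Calr had 192, 250 and 313 CPM in shock libraries, against 177, 246 and 319 CPM in home cage libraries, and Pdia4 had 56.6, 76.5 and 108 CPM, against 55.4, 73.5 and 81.5 CPM. Their log2 differences were 0.02 ± 0.15 and 0.11 ± 0.16. Sdf2l1, the small BiP-associated protein, had 25.5, 56.9 and 109 CPM in shock libraries, against 19.1, 28.6 and 74.9 CPM in home cage libraries, a log2 difference of 0.74 ± 0.37 (edgeR adjusted p = 0.129). Pdia6 differed by 0.30 ± 0.22 and Xbp1 by -0.15 ± 0.30. The sum over the 10 genes was 2575 ± 375 CPM in shock libraries and 3694 ± 572 CPM in home cage libraries (SD, n = 6 each).

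Own-class scores overlapped in these groups, at 3.65 to 4.57 in shock and 3.90 to 4.67 in home cage libraries. With that score or sex as a covariate, 5 genes were called. None was called with GC and length offsets, and the log2 differences were then -0.10 for Hspa5, -0.021 for Hsp90b1, -0.43 for Pdia3 (edgeR adjusted p = 0.098), -0.10 for Canx and -0.087 for Dnajb9. Without shock replicate 3, 4 or 6 the count was 2, and without shock replicate 5 or 1 of the 2 home cage libraries with no number it was 3. Over the 16 fits that each left out 1 library, 4289 to 6828 of all genes were called. A fit with the replicate number as a block called 3. Dnajb9 had 88.6, 122, 137 and 192 CPM in Pvalb box libraries, and shock over box was -1.05 ± 0.28 (edgeR adjusted p = 0.171). edgeR called no member in shock against box (0% of all genes), 5 had an unadjusted p below 0.05 (20.5% of all genes), and DESeq2 called 3. In box against home cage edgeR called none (0% of all genes), none had an unadjusted p below 0.05 (11.3% of all genes), and DESeq2 called 0.

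**Figure D3:**
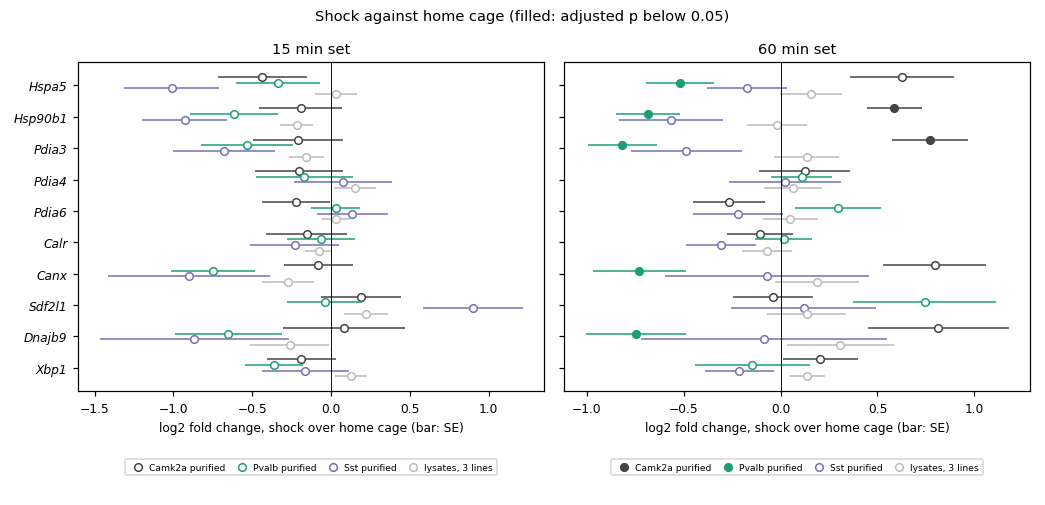
Log2 difference of shock over home cage for each of the 10 genes in purified libraries, by line and time set, with the SE as error bars; filled points passed the edgeR test at an adjusted p below 0.05. In the 60 min sets Hspa5, Hsp90b1, Pdia3, Canx and Dnajb9 are above 0 in the Camk2a line (0.59 to 0.81) and below 0 in the Pvalb line (-0.82 to -0.52).

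The opposite responses of the lines were tested as an interaction, the shock-minus-home-cage difference of 1 line less that of another. Pvalb less Camk2a at 60 min was below 0 and called for Pdia3 (-1.57 ± 0.32, edgeR adjusted p = 0.000319), Hsp90b1 (-1.25 ± 0.27, adjusted p = 0.000635), Hspa5 (-1.13 ± 0.33, adjusted p = 0.00807) and Canx (-1.49 ± 0.53, adjusted p = 0.0247). Dnajb9 had -1.53 ± 0.64 (adjusted p = 0.0546). In this comparison 37.6% of all genes were called and 16.8% were lower in the Pvalb line. With GC and length offsets Pdia3 alone was called, at -1.07 (edgeR adjusted p = 0.012), and the values of Hsp90b1, Hspa5 and Canx were -0.32, -0.58 and -0.56. The home cage libraries enter each line's difference and also the comparison of lines at rest described further on.

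Sst less Camk2a at 60 min was called for Hsp90b1 (-1.20 ± 0.29, edgeR adjusted p = 0.0143) and Pdia3 (-1.30 ± 0.34, adjusted p = 0.0216), where 4.85% of all genes were called. Both were also called with GC and length offsets, at -0.86 and -1.17 (edgeR adjusted p = 0.024 and 0.018). All 4 Sst shock libraries in it lack the somatostatin marker profile, and leaving out replicate 1 or replicate 4 of each line left 0 of the 10 genes called. Over the 6 fits that each left out 1 replicate number, 31 to 777 of all genes were called. No member was called between the Pvalb and Sst responses at 60 min, where 18.2% of all genes were called. None had an unadjusted p below 0.05 there (30% of all genes), and DESeq2 called 0.

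**Figure D4:**
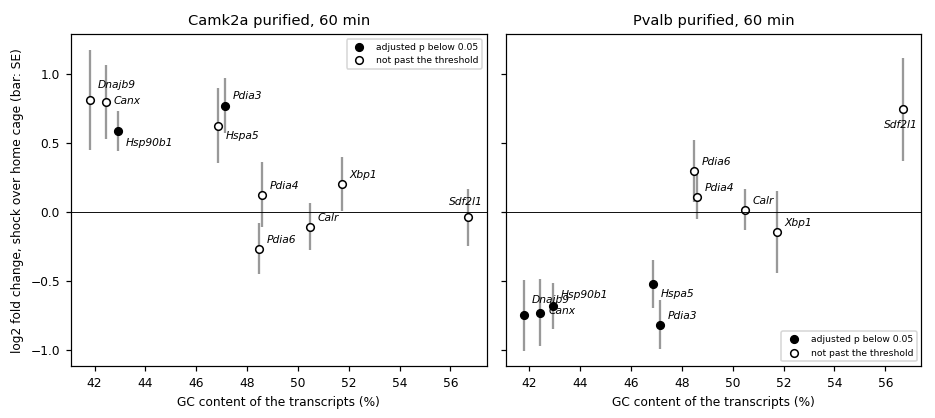
Log2 difference of shock over home cage at 60 min against the GC content of the annotated transcripts for the 10 genes, in the Camk2a and Pvalb lines. The 5 genes of lowest GC content (41.8 to 47.1%) have the largest positive values in the Camk2a line and the 5 lowest values in the Pvalb line.

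The 5 genes called in the Pvalb line at 60 min, shock against home cage, are also those of lowest GC content among the 10. Dnajb9 has 41.8%, Canx 42.4%, Hsp90b1 42.9%, Hspa5 46.9% and Pdia3 47.1% GC, taken over all annotated transcripts of the gene. Next come Pdia6 at 48.5%, Pdia4 at 48.6%, Calr at 50.5%, Xbp1 at 51.7% and Sdf2l1 at 56.7%. Exact matches to the stress element in the searched windows were found for Hspa5, Hsp90b1 and Canx among the called genes. Among the others they were found for Pdia6 and Calr. The part of the element in the result was not tested. The part of GC content in the result was tested only by the offsets given above.

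Further ER genes were counted by list. In the Camk2a line at 60 min, shock against home cage, Hspa13, an HSP70-like ER protein, rose by 1.15 ± 0.26 on the log2 scale (edgeR adjusted p = 0.0475), 1 of 14 cochaperones and further chaperones. None passed among 14 disulfide enzymes, 12 glycoprotein folding genes, 13 genes of ER-associated degradation, 10 UPR sensors and factors, and 20 genes of the translocon and oligosaccharyltransferase. The list medians were 0.38 for disulfide enzymes, 0.35 for the translocon list and -0.43 for the UPR list.

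In the Pvalb line at 60 min the lists went both ways. Of 14 cochaperones 5 rose and 4 fell, among them Creld1 (1.26) and Sil1 (0.96), a nucleotide exchange factor of BiP, upwards, and Hspa13 (-1.02) and Sec63 (-0.71), a J-domain protein of the translocon, downwards. Of 14 disulfide enzymes 4 rose and 5 fell: Erp29 had 1.003, while Ero1l, the oxidase that recharges disulfide isomerases, had -0.87. Of 10 UPR genes 3 rose and 2 fell, with Ddit3 (CHOP) at 1.16, Atf6b at 0.89, Mbtps2 at -0.91 and Atf6 at -0.44. In the translocon list 4 rose and 10 fell of 20, with Ssr2 at 0.92, Dad1 at 0.88, Sec61a1 at 0.71 and Spcs3 at -0.99. Among glycoprotein folding genes 3 of 12 rose (Edem2 1.09, Prkcsh 1.09, Lman2 0.52), and in ER-associated degradation 2 of 13 rose (Syvn1 1.08, Os9 0.79) and 1 fell (Ube2j1 -0.49). All values are log2 differences, and the called share of all genes was 35%.

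Between the lines, 4 cochaperones were higher and 4 lower in the Pvalb than in the Camk2a shock response at 60 min, Hspa13 at -2.13 ± 0.48 (edgeR adjusted p = 0.000967) and Creld1 at 1.79 ± 0.31 (adjusted p = 6.32e-05). Of all genes 20.8% were higher and 16.8% lower. In the translocon list 5 were higher and 12 lower of 20. In the UPR list 4 were higher and 2 lower of 10, with Ppp1r15a, which restarts translation after stress, at 1.84 ± 0.47 (adjusted p = 0.0028).

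At 15 min no member passed in any line. In the Camk2a line, shock against home cage, 8 of the 10 values were below 0, with a median of -0.19 against -0.02 for all genes, and 0% of all genes were called. Hspa5 had the smallest p: 248, 400, 596 and 608 CPM in shock libraries, against 569, 575 and 730 CPM in home cage libraries, a log2 difference of -0.43 ± 0.28 (edgeR adjusted p = 0.70). The groups overlapped. None had an unadjusted p below 0.05 (8.86% of all genes), and DESeq2 called 0.

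In the Pvalb line at 15 min, 9 of the 10 values were below 0, with a median of -0.35 against 0.04 for all genes. edgeR called 0 members and 0% of all genes, 2 members had an unadjusted p below 0.05 (15.6% of all genes), and DESeq2 called 0. Canx had 451, 572, 614, 702 and 1082 CPM in shock libraries, against 860, 1088, 1109 and 1271 CPM in home cage libraries, a log2 difference of -0.75 ± 0.27 (edgeR adjusted p = 0.25). All but the highest shock library lay below the home cage range. Hsp90b1 had 179, 199, 306, 334 and 407 CPM in shock libraries, against 293, 346, 504 and 510 CPM in home cage libraries, a log2 difference of -0.62 ± 0.28 (edgeR adjusted p = 0.301). The GC slope averaged 0.32 ± 0.24 after shock and -0.18 ± 0.26 in the home cage in this set, in the same order as at 60 min.

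In the Sst line at 15 min both HSP70 and HSP90 members were low in shock libraries without passing the test. Hspa5 had 278, 360, 363, 378 and 448 CPM in shock libraries, against 459, 527, 578 and 1120 CPM in home cage libraries, a log2 difference of -1.01 ± 0.30 (edgeR adjusted p = 0.0936). Hsp90b1 had 236, 256, 331, 336 and 342 CPM in shock libraries, against 422, 457, 531 and 674 CPM in home cage libraries, a log2 difference of -0.93 ± 0.27 (edgeR adjusted p = 0.0895). In neither gene did the groups overlap, which was so in this direction for 2.97% of all genes. Sdf2l1 went the other way, with 41.4, 70.5, 77.4, 91.3 and 111 CPM in shock libraries, against 26.2, 36.4, 46.0 and 46.2 CPM in home cage libraries (0.90 ± 0.32, edgeR adjusted p = 0.129). edgeR called no member and 1.21% of all genes; 3 members had an unadjusted p below 0.05 (21.8% of all genes), and DESeq2 called 3.

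Cell class markers moved with these Sst values. Pyramidal neuron markers summed to 6432 to 14402 CPM in shock and 1177 to 5342 CPM in home cage libraries, over 12 markers of which none was at 0. GABA neuron markers, also 12 with none at 0, summed to 198 to 3068 CPM in shock and 3338 to 5009 CPM in home cage libraries. Microglia markers reached 5977 CPM in shock libraries and 123 CPM in home cage libraries. Their part in the chaperone values was not tested. Leaving out the 4 shock and 1 box libraries of low score could not decide it, since the group held only 5 shock libraries.

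In the Sst line at 60 min no member was called, where 4.49% of all genes were. None had an unadjusted p below 0.05 (21.5% of all genes), and DESeq2 called 0. The smallest p-values were those of Hsp90b1 and Calr. Hsp90b1 had 184, 203, 214 and 356 CPM in shock libraries, against 250, 300, 301, 398 and 420 CPM in home cage libraries, a log2 difference of -0.57 ± 0.27 (edgeR adjusted p = 0.24). Calr had 172, 177, 245 and 283 CPM in shock libraries, against 209, 236, 247, 256 and 330 CPM in home cage libraries, a log2 difference of -0.31 ± 0.18 (edgeR adjusted p = 0.352). Both pairs of groups overlapped. The UPR genes Trib3 (2.03 ± 0.37, edgeR adjusted p = 0.0147) and Ppp1r15a (0.84 ± 0.18, adjusted p = 0.0232) rose in the same comparison, 2 of 10 on that list. Oligodendrocyte markers summed to 7506 to 11401 CPM in shock and 2465 to 5827 CPM in home cage libraries, and somatostatin neuron markers to 197 to 476 and 487 to 7887 CPM. Their part in these values was not tested, since no shock library with a score of at least 1 remained.

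Against the box control, shock called no member of the Sst line by edgeR at either time (0% of all genes at 15 min and 8.18% at 60 min); 1 had an unadjusted p below 0.05 at 15 min (8.63% of all genes) and 0 at 60 min (25.3%), and DESeq2 called 0 at both. In box against home cage at 15 min all 10 values were below 0, with a median of -0.31 against 0.01 for all genes, and edgeR and DESeq2 called none (0% of all genes by edgeR). Hsp90b1, with 303, 324 and 369 CPM in box libraries, lay below all 4 home cage libraries, and so did Pdia3, with 278, 379 and 404 CPM; 0.978% of all genes had box libraries all below home cage libraries. Only Hsp90b1 of the 10 had an unadjusted p below 0.05 (4.24% of all genes).

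The difference between times was tested in each line, as the shock-minus-home-cage difference at 60 min less that at 15 min. edgeR called no member in any line, where 5.71% of all genes were called in the Camk2a line and 0% in the Pvalb and Sst lines. The largest values in the Camk2a line were those of Hspa5 (1.01 ± 0.42, edgeR adjusted p = 0.137) and Pdia3 (0.93 ± 0.35, adjusted p = 0.103). An unadjusted p below 0.05 was found for 4 members in the Camk2a line (24.6% of all genes), 0 in the Pvalb line (9.2%) and 1 in the Sst line (15.5%), and DESeq2 called 0 in each. Between the lines at 15 min no member was called for any pair (0.00609% of all genes for Pvalb less Camk2a, 0.31% for Sst less Camk2a and 0.0791% for Pvalb less Sst). DESeq2 called 0 in all 3 pairs, and 1 member had an unadjusted p below 0.05, Sdf2l1 for Pvalb less Sst (-0.95 ± 0.36, edgeR adjusted p = 0.43). At that threshold stood 5.47% of all genes for Pvalb less Camk2a, 10.6% for Sst less Camk2a and 8.34% for Pvalb less Sst.

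Total lysates, which hold the RNA of all cells of the tissue, showed no called member in any of 6 comparisons of conditions, with line as a covariate. The called shares of all genes were 0.128% for shock against home cage, 0.0128% for box against home cage and 0% for shock against box at 15 min, and 0% in all 3 at 60 min. By DESeq2 the count was 0 in all 6, and 1 member, Hsp90b1 at 15 min in shock against home cage (-0.22 ± 0.10, edgeR adjusted p = 0.79), had an unadjusted p below 0.05 (5.75% of all genes). At 60 min, box against home cage, all 10 values were above 0 (0.01 to 0.28, median 0.18, against 0.00 for all genes). Shock against home cage gave 8 of 10 above 0, with a median of 0.13.

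These lysate means hid a spread between lines. Hspa5 in 60 min lysates averaged 848 ± 348 CPM in box and 507 ± 185 CPM in home cage mice of the Pvalb line. In the Camk2a line it averaged 520 ± 197 CPM in box and 446 ± 43.1 CPM in home cage mice, and in the Sst line 505 ± 135 CPM in box and 635 ± 225 CPM in home cage mice. The Sst line thus had the opposite order, with overlapping groups. The lysate values of the Camk2a line after shock at 60 min were 275 to 407 CPM for Hsp90b1, against 248 to 446 CPM in the home cage.

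By edgeR, Calr, the soluble lectin chaperone, was higher in the purified fraction than in the lysate in all 6 tables. Its log2 differences were 0.28 to 0.71. Sdf2l1 was higher in the purified fraction of the Camk2a and Sst lines and Canx, Pdia3 and Hspa5 in that of the Pvalb line, whereas Dnajb9 was lower in purified Camk2a libraries and Pdia6 lower in purified Pvalb libraries. These comparisons used the mean of the 3 conditions in each fraction. Large shares of all genes differ between fractions, from 44.5% to 60.4%, so the counts of members called are near that background.

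In the Pvalb line Canx differed by 0.80 ± 0.17 at 15 min and 0.81 ± 0.16 at 60 min (edgeR adjusted p = 0.000463 and 8.29e-05). Hspa5 (0.52 and 0.47) and Pdia3 (0.47 and 0.52) were higher at both times, and Hsp90b1 (0.38) and Dnajb9 (0.59 ± 0.20) at 60 min. Pdia6 was lower at both, at -0.48 ± 0.09 and -0.48 ± 0.15. In all, 5 of the 10 were called at 15 min (45.6% of all genes) and 7 at 60 min (60.4%). The 15 min count was 2 with the replicate block (Canx and Pdia6) and 2 with home cage libraries alone (Canx and Hspa5).

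In the Camk2a line 5 were called at 15 min (50.7% of all genes) and 4 at 60 min (57.5%), against 3 and 1 with home cage libraries alone. Sdf2l1 was higher by 0.70 ± 0.16 at 15 min and 0.72 ± 0.17 at 60 min (edgeR adjusted p = 0.00112 and 0.000931), and Calr by 0.69 ± 0.14 and 0.33 ± 0.11. Dnajb9 was lower, at -0.74 ± 0.20 and -0.73 ± 0.26 (edgeR adjusted p = 0.00402 and 0.0215). Pdia3 (-0.36) and Pdia6 (0.28) were called at 15 min and Xbp1 (-0.24) at 60 min. Under GC and length offsets Dnajb9 at 60 min had 0.18 and Pdia3 at 15 min 0.16, so their order was turned, and Calr had 1.10 and 1.06.

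The Sst line differed between its sets. At 15 min edgeR called 7 of the 10 as higher in the purified fraction (44.5% of all genes called). They were Calr at 0.71 ± 0.13, Hspa5 at 0.65 ± 0.15, Hsp90b1 at 0.63 ± 0.13, Canx at 0.68 ± 0.26, Pdia3 at 0.56, Sdf2l1 at 0.52 and Pdia4 at 0.44. In CPM, which leave out TMM scaling, Pdia4 had 51.1 to 148 in purified libraries and 59.0 to 123 in lysates. Hspa5 had 278 to 448 CPM in purified and 359 to 556 CPM in lysate shock libraries. In home cage libraries Hspa5 had 459 to 1120 and 251 to 481 CPM. Without the 5 libraries of low own-class score 3 were called, and with home cage libraries alone 3. At 60 min 5 were lower, Dnajb9 at -1.94 ± 0.39, Canx at -1.14 ± 0.31, Pdia3 at -1.12 ± 0.20, Hsp90b1 at -0.81 ± 0.18 and Xbp1 at -0.42, and Calr (0.61 ± 0.15) and Sdf2l1 (0.67 ± 0.26) were higher (59.4% of all genes called). All 4 shock libraries of this set lack the somatostatin profile, and with home cage libraries alone Dnajb9 was the only 1 of the 7 still called (-1.83, edgeR adjusted p = 0.0488). With GC and length offsets Hsp90b1 had 0.36, Canx 0.070 and Sdf2l1 -0.19.

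**Figure D5:**
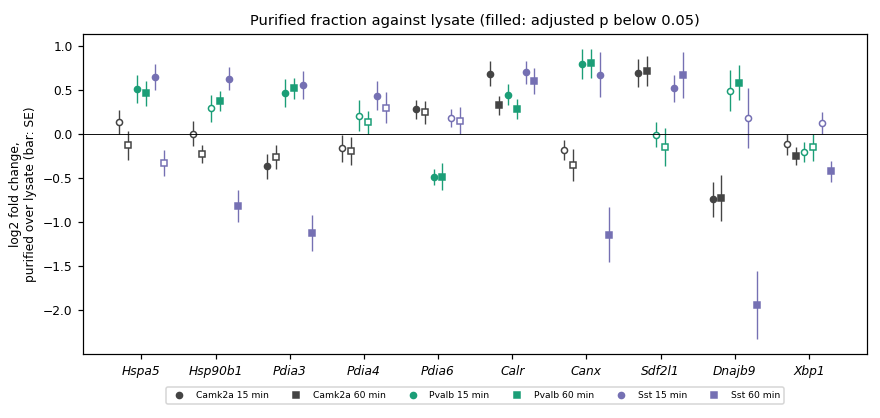
Log2 difference of purified fraction over lysate by edgeR after TMM scaling, for the 10 genes in the 6 tables. Error bars are the SE, and filled points passed the edgeR test. Calr is above 0 in all 6 tables (0.28 to 0.71), and Dnajb9 runs from -1.94 in the Sst 60 min set to 0.59 in the Pvalb 60 min set.

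At rest the lines differed most in the 60 min set. In home cage libraries of that set Hspa5, Hsp90b1, Pdia3, Canx and Dnajb9 were higher in Pvalb interneurons than in Camk2a neurons, and Pdia6 and Sdf2l1 were lower. Canx had 834, 1037 and 1263 CPM (lowest, median, highest of 6) in Pvalb libraries, against 185, 242, 339 and 411 CPM in Camk2a libraries, a log2 difference of 1.73 ± 0.40 (edgeR adjusted p = 0.000508). Pdia3 had 520, 697 and 879 CPM in Pvalb libraries, against 173, 202, 262 and 265 CPM in Camk2a libraries, a log2 difference of 1.53 ± 0.24 (edgeR adjusted p = 1.78e-06). In neither gene did the lines overlap, but the share of all genes without overlap between lines was not counted.

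Dnajb9 (1.60 ± 0.49, edgeR adjusted p = 0.0059), Hspa5 (1.19 ± 0.25, adjusted p = 0.000127) and Hsp90b1 (1.14 ± 0.20, adjusted p = 1.38e-05) followed. Pdia6, a disulfide isomerase, was lower in the Pvalb line (-0.94 ± 0.24, edgeR adjusted p = 0.0011), and Sdf2l1 too (-0.91 ± 0.37, adjusted p = 0.0392). The 7 called of 10 stand against 51.8% of all genes called, and the median of the members was 0.80 against 0.29 for all genes. With GC and length offsets 4 of the 10 were called, 1 higher and 3 lower, and Hsp90b1 had -0.088. Purified Pvalb libraries at 15 min did not show this difference beyond the spread: Canx was at 0.82 ± 0.44 (edgeR adjusted p = 0.204) and Hspa5 at -0.05 ± 0.32, and Pdia6 alone was called (-0.57 ± 0.20, adjusted p = 0.0493), where 15.2% of all genes were called. Leaving out any 1 home cage library ended that call, while 1380 to 2204 of all genes were called over those 7 fits.

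Against Sst libraries at rest in the 60 min set, Pvalb libraries were higher in Canx (1.49 ± 0.37), Dnajb9 (1.44 ± 0.44), Pdia3 (1.05 ± 0.22), Hsp90b1 (0.73 ± 0.19) and Hspa5 (0.68 ± 0.23) and lower in Pdia6 (-0.59 ± 0.22), 6 of 10 called by edgeR with 44.2% of all genes called. At 15 min none was called between these lines (0.0548% of all genes), 2 had an unadjusted p below 0.05 (10.4%), and DESeq2 called 0. Pdia4 was the member that set Sst home cage libraries apart from Camk2a ones at both times. It had 60.1, 61.2, 95.1 and 148 CPM in Sst libraries at 15 min, against 35.9, 38.2 and 44.0 CPM in Camk2a libraries, a log2 difference of 1.22 ± 0.35 (edgeR adjusted p = 0.0237; 9.5% of all genes called).

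At 60 min Pdia4 had 53.2, 82.9, 98.9, 113 and 139 CPM in Sst libraries, against 29.8, 46.5, 52.4 and 62.5 CPM in Camk2a libraries, a log2 difference of 0.77 ± 0.25 (edgeR adjusted p = 0.0229; 24.4% of all genes called). The lines did not overlap at 15 min, which was not counted over all genes, and overlapped at 60 min. The difference less that of the lysates was 0.68 (edgeR adjusted p = 0.376) at 15 min and 0.37 (adjusted p = 0.56) at 60 min, so the part of the table as a whole was not told apart from that of the cell class. The 60 min value with GC and length offsets was -0.094. Without any 1 of the 3 Camk2a libraries or without Sst replicate 2 the 15 min call was lost, and without Camk2a replicate 2 or Sst replicate 1 the 60 min call.

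Across the 18 purified group means, given as a description of points that share lines, depth and base composition, the members did not act as 1 block. The correlation of each gene with the mean of the other 9 was 0.86 for Pdia3, 0.74 for Hspa5, 0.73 for Dnajb9, 0.71 for Hsp90b1, 0.69 for Canx and 0.59 for Xbp1. It was 0.19 for Pdia4, 0.15 for Calr, -0.42 for Sdf2l1 and -0.54 for Pdia6. Within groups, over the deviations of 76 purified libraries from their group means, the same correlation was above 0 for all 10 genes. There it ran from 0.16 for Calr to 0.84 for Hspa5, with 0.29 for Pdia6 and 0.175 for Sdf2l1. Dnajb9 had the widest range of group means, 2.15 log2 units, then Canx at 1.93 and Pdia4 at 1.82, and Calr the narrowest at 0.36. The mean of the 10 genes, each centred on its own mean, was highest in Pvalb box libraries at 60 min (0.49) and lowest in Camk2a home cage libraries at 60 min (-0.41).

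The 8 other genes whose group means followed that mean profile most closely, among 9026 genes at 10 CPM or more, were Spock3 (Pearson r = 0.924), Erp44 (0.920), Gnpda2, Acsl3, Lypla1, Ergic2, Golph3 and Acer3 (0.898), over 18 groups. Erp44, a disulfide enzyme of the early secretory pathway, is the only 1 of the 8 in the ER lists.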

How the data were processed

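The authors deposited 6 tables of raw counts per gene, 1 for each combination of driver line and time. The submitters' processing notes name STAR 2.7.7a, featureCounts, DESeq2 and GRCm38; per the labels' protocols, polyA RNA was extracted with RNeasy columns and made into libraries with Nextera XT. Strand use in counting is not given in the sources, so overlapping antisense genes cannot be told apart. Of 153 labelled samples, 2 (Camk2a 60 min box replicate 4 in both fractions) were not analysed here, and 3 Pvalb home cage columns carry a group but no usable replicate number.

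From the counts, CPM were computed, per kb of GENCODE M21 exon length where genes are compared (93.0% of genes matched). Tests used R 4.3.3 and edgeR 4.0.16 (filterByExpr, TMM, robust quasi-likelihood), adjusted over all genes tested; no covariates except line in lysates. DESeq2 1.42.0 was an alternative, beside no filter, DESeq2's size factors, a replicate block, GC and length offsets, covariates for marker score or sex, and left-out libraries. The test was checked on simulated data. Members and lists were chosen with earlier results of these data known. All members may be named; other ER genes only past the threshold, at most 4 per list. The smallest totals limit low genes most; the members are far above the filter in every library. Sequences are RefSeq's.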

Additional observations from a re-analysis of the deposited data

Results flagged for a closer look

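In 154 sets of 4 to 6 libraries, 2 single values (1.3%) stood far from the rest, where chance gives about 5%. Both belong to Pvalb 60 min purified home cage replicate 6: Pdia6 had 161 CPM there, against 88.1 to 111 CPM in the other 5, and Sdf2l1 had 74.9 CPM, against 19.1 to 38.4 CPM in the other 5. Without that library, 4 members fell and 1 rose after shock in the Pvalb line. With all libraries 35% of the 16135 genes tested were called there. Over the 16 fits that each left out 1 library, 4289 to 6828 of all genes were called.

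The shock response at 60 min differed between lines by the interaction test in 6 cases. Pvalb less Camk2a gave a log2 difference of -1.13 for Hspa5, -1.25 for Hsp90b1, -1.57 for Pdia3 and -1.49 for Canx. Sst less Camk2a gave -1.20 for Hsp90b1 and -1.30 for Pdia3. The edgeR adjusted p-values are in the account of these comparisons, and the parts of GC content and marker makeup were tested only by the alternatives given there.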

How the results depend on the processing

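Counts below are of the 10 genes called, without the share of all genes called under the same setting. They show how a count moves and are not read as results about the members. For shock against home cage in the Camk2a 60 min set (2 called), DESeq2's size factors gave 1, and the replicate block, GC and length offsets, marker score and sex each gave 0. In the Pvalb 60 min set (5 called), no filter gave 3, the replicate block 3, offsets 0, and leaving out 1 unnumbered home cage library 3. DESeq2 gave 3 for Pvalb 60 min shock against box and 3 for Sst 15 min shock against home cage (0 by edgeR). Offsets gave 1 in Sst 60 min shock against home cage and 1 against box (0 without). For purified against lysate, home cage libraries alone gave 3 (Camk2a 15 min), 1 (Camk2a 60 min), 2 (Pvalb 15 min), 3 (Sst 15 min) and 1 (Sst 60 min), against 5, 4, 5, 7 and 7. Offsets gave 9 in Camk2a 60 min (57.5% of all genes called without offsets), the block 2 in Pvalb 15 min, and leaving out low-score libraries 3 in Sst 15 min. Between home cage lines at 15 min, Pvalb against Camk2a (1) gave 0 with the block and 0 without low-score libraries, and Sst against Camk2a (1) gave 2 less the lysate difference. At 60 min, Pvalb against Camk2a (7) gave 4 with offsets, Pvalb against Sst (6) gave 3 with offsets, and Sst against Camk2a (1) gave 2 by DESeq2, 5 with offsets, 4 without low-score libraries and 0 less the lysate difference. The Pvalb less Camk2a interaction (4) gave 1 with offsets.

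Offsets, chosen after seeing the data outside the condition contrasts, turned 8 directions: Pdia3 to 0.16 (Camk2a 15 min, purified over lysate), Dnajb9 to 0.18 and Xbp1 to 0.48 (Camk2a 60 min), Canx to 0.070, Hsp90b1 to 0.36 and Sdf2l1 to -0.19 (Sst 60 min), and at rest at 60 min Hsp90b1 to -0.088 (Pvalb over Camk2a) and Pdia4 to -0.094 (Sst over Camk2a). The cause was not tested. Leaving out 1 library gave 0 to 3 (Camk2a 60 min shock against home cage), 2 to 5 (Pvalb), 0 to 2 (Pvalb shock against box, 2 without shock replicate 2), 0 to 0 and 0 to 1 (home cage at 15 min, Pvalb and Sst against Camk2a), 6 to 7, 0 to 2 and 4 to 6 (at 60 min, Pvalb and Sst against Camk2a, Pvalb against Sst), and 3 to 5 and 0 to 2 (interactions); elsewhere 0. It was not run for lysates or purified against lysate.

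In most comparisons not every pair of same-numbered libraries had a correlation over 0.1. Across conditions 24 of 64 purified and 36 of 63 lysate pairs had a correlation over 0.1, and across fractions 39 of 72 had. Among home cage libraries, 10 of 23 shock libraries matched their own number best. Among the lysates of their group, 32 of 72 purified libraries matched their own number best. The numbers of best matches to be had by chance were not worked out, so these counts do not decide whether same-numbered libraries pair. The main tests of purified against lysate took libraries as unpaired, and the replicate block is the fit that pairs them. In 8 of 51 comparisons of 2 groups with at least 3 pairs every correlation was over 0.1: Sst 60 min purified shock against home cage (0.423 to 0.784), 3 among lysates and 4 between fractions within a condition. The block left 0 members called in that Sst comparison and in all lysate comparisons, as without it. Under the replicate block 53 member calls were kept and 11 were lost.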
